A study of Mus musculus with 12 samples.

Results

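The genes described here are 9 T cell checkpoint and exhaustion genes, Pdcd1, Lag3, Tigit, Havcr2, Btla, Cd160, Cd200, Icos and Tox, chosen by name from the 49315 genes of the count table, by a rule that used no measured value but with earlier results of these data known. All 9 were found in the table, and all 9 had enough counts to be tested in every comparison. Messenger RNA was sequenced in splenic T cells of WT mice and of miR-214-/- mice, which lack the microRNA in every cell of the body. Mice of each genotype received either angiotensin II (Ang II), the pressor peptide, at 490 ng/kg per day, or its vehicle (sham), for 14 days by osmotic minipump. The 4 groups (WT sham, WT Ang II, miR-214-/- sham and miR-214-/- Ang II) held 3 mice each, with 1 library per mouse. Mice were 12 weeks old when infusion began. T cells were enriched by depleting other spleen cells with magnetic beads, so that CD4+ and CD8+ cells of every state were pooled. The knockout is constitutive and not limited to T cells.

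Checkpoint receptors are surface proteins that adjust how strongly a T cell responds to antigen. PD-1 (Pdcd1), LAG-3 (Lag3), TIGIT (Tigit), TIM-3 (Havcr2) and BTLA (Btla) damp the signal of the T cell receptor, and several of them appear together on cells that have met antigen for a long time, a state called exhaustion, and also on recently activated, regulatory and follicular helper T cells. TOX (Tox) is the nuclear factor that sets up the exhausted state in chronic infection, while ICOS (Icos) is a costimulatory receptor induced after activation. In the spleen some of these genes are used by other cells too: Btla and Cd200 by B cells, Cd160 by natural killer (NK) cells, and Havcr2 by macrophages and dendritic cells.

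The microRNA deleted in the knockout is processed to a mature strand, miR-214-3p, encoded at chr1:162223438-162223459 on the plus strand (GRCm38.p6). It is printed below, from RefSeq, because the groups differ in it. It is followed by every place in the members' 3′ UTRs, read from GENCODE transcripts of GRCm38, where the letters CCTGCTG pair with its seed. Capitals mark bases 2 to 8, the seed, in the microRNA and the 7 bases that pair with it in the genes.
miR-214-3p: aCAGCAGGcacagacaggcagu
Havcr2 (chr11:46480610-46480632, plus strand): gcaagcagCCTGCTGtctgtaaa
Icos (chr1:60998371-60998393, plus strand): cttggcagCCTGCTGccactcca
The longest annotated 3′ UTR of each gene was searched on its own strand. The letters occurred once each in Havcr2 and Icos, in 3′ UTRs of 1809 and 2606 bases, and in no other of the 9 members. The 3′ UTRs searched for Lag3 and Tigit were only 81 and 134 bases long, which left little room for a match. A share of 22.2% of the members held the letters, compared with 23.1% of the 13099 tested genes with an annotated 3′ UTR. The median 3′ UTR length was 1809 bases for the members and 1134 for those tested genes. Such a match is a description of sequence and was not tested as a site of action. Neither the primary gene Mir214 (0 counts in all 12 libraries) nor its host transcript Dnm3os (1 count, in WT Ang II replicate 3) was measurable in these libraries of messenger RNA, which leaves the knockout unchecked at the level of the deleted gene.

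On the genome (GRCm38), 3 of the members lay close together on chromosome 16. Tigit (ENSMUSG00000071552, chr16:43648867-43664146, minus strand) was 1.56 Mb before Btla (ENSMUSG00000052013, chr16:45224315-45257670, plus strand), which was 0.124 Mb before Cd200 (ENSMUSG00000022661, chr16:45382135-45409053, minus strand). Icos (ENSMUSG00000026009, chr1:60977927-61000320, plus strand) and Pdcd1 (ENSMUSG00000026285, chr1:94038305-94052553, minus strand) shared chromosome 1, at a distance of 33.0 Mb. Lag3 was on chromosome 6 (ENSMUSG00000030124, chr6:124904361-124911705, minus strand) and Havcr2 on chromosome 11 (ENSMUSG00000020399, chr11:46454935-46481255, plus strand). Cd160 (ENSMUSG00000038304, chr3:96798763-96829351, minus strand) overlapped an exon of Pdzk1 on the opposite strand by 68 bases. Tox (ENSMUSG00000041272, chr4:6686353-6991557, minus strand) overlapped an exon of the opposite-strand gene Gm11802 by 260 bases. The libraries were stranded, but the strand setting of the counting was not given in the sources used here, so reads in these short overlaps may be shared.

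Libraries held between 21126874 and 29605988 counts. The T cell label was checked on 15 T cell genes, whose summed level was 4454 to 7756 CPM (read counts scaled to the size of each library) over the 12 libraries, against 59.5 to 492 CPM for 10 B cell genes and 105 to 316 CPM for 9 NK cell genes. RNA of cells other than T cells was thus present, and for some lists at a level near that of the T cell genes: the red-cell precursor sum was 5575 CPM in WT Ang II replicate 1 and 4588 CPM in miR-214-/- Ang II replicate 2. The B cell sum was 381 CPM in WT sham replicate 1 and 492 CPM in miR-214-/- Ang II replicate 2, and at most 185 CPM in the other libraries. Several sums differed with Ang II in WT. The T cell sum was 6519 to 7756 CPM in WT sham and 4454 to 5380 CPM in WT Ang II. The neutrophil sum was 193 to 244 against 1073 to 3240 CPM, the basophil and mast cell sum 49.3 to 87.9 against 190 to 433 CPM, the red-cell precursor sum 307 to 510 against 955 to 5575 CPM, the megakaryocyte sum 17.5 to 32.2 against 47.0 to 57.9 CPM and the cell cycle sum 441 to 534 against 1557 to 1850 CPM. None of these sums overlapped between the 2 WT groups. In bulk RNA of this kind, fewer cells of a type and less RNA per cell cannot be told apart.

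Levels of the members were compared per length, as CPM per kilobase of annotated exon averaged over the 12 libraries. Btla and Icos stood at the top (34.0 ± 5.89 and 30.5 ± 2.63 CPM per kilobase, SD, n = 12 here and in the rest of this paragraph), followed by Tigit at 28.6 CPM per kilobase. These 3 could not be ordered beyond their spread: Btla was above Icos in 9 of 12 libraries and Icos above Tigit in 7. Pdcd1 followed at 18.4, below Tigit in all 12 libraries, and then Lag3 at 11.4, below Pdcd1 in all 12. Tox was at 7.89, Cd200 at 6.54 and Cd160 at 4.67 CPM per kilobase. Lag3 was above Tox in 10 of 12 libraries, Tox above Cd200 in 11, and Cd200 above Cd160 in 11. Havcr2 was the lowest at 1.80 CPM per kilobase, below Cd160 in all 12 libraries, and rested on 52 to 211 counts per library. The genes also differed in how much they varied from library to library. The coefficient of variation was 8.63% for Icos, 11.4% for Tox, 12.8% for Cd200, 17.3% for Btla and 18.7% for Cd160, but 26.3% for Tigit, 29.4% for Lag3, 32.0% for Pdcd1 and 38.7% for Havcr2.

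**Figure D1:**
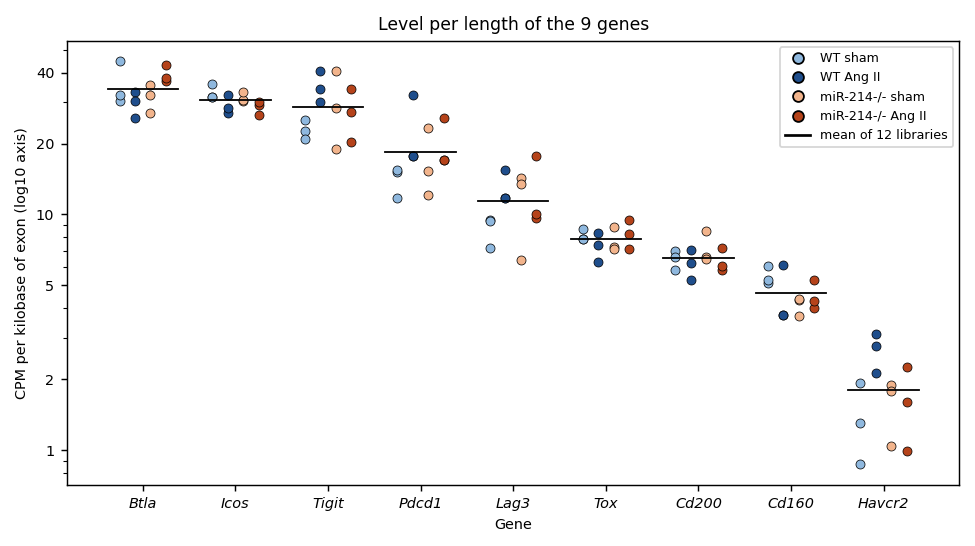
Level of each of the 9 genes in CPM per kilobase of exon (log10 axis); each point is a library, coloured by group, and the line is the mean of 12 libraries. Btla, Icos and Tigit overlap at the top (means 34.0, 30.5 and 28.6), and Havcr2 lies below the others (mean 1.80).

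To ask how the checkpoint genes responded to Ang II, WT Ang II was compared with WT sham. Tigit rose 1.54-fold and Lag3 1.51-fold, and these were the 2 members with an adjusted p under 0.05 in edgeR's quasi-likelihood test. Pdcd1 and Havcr2 were 1.62-fold and 1.98-fold higher, with all 3 Ang II values above all 3 sham values, without passing the test. Btla, Cd160, Cd200, Icos and Tox overlapped between the groups. No member passed both thresholds used to call a gene (an adjusted p below 0.05 together with a log2 fold change beyond 1 in either direction), compared with 7.30% of 16012 genes tested. By adjusted p alone, 2 of 9 members passed (22.2%), both higher, while 18.8% of all genes passed in either direction and 11.7% were higher. Groups did not overlap for 4 of 9 members (44.4%, all higher), beside 41.1% of all genes in either direction and 19.1% higher. These shares for the members were near those of all genes in either direction, and the median log2 fold change of the members was -0.04 against -0.02 over all genes.

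TIGIT competes with the activating receptor CD226 for the ligands CD155 and nectin-2. Tigit was at 20.9, 19.2 and 23.2 CPM in WT sham and at 31.2, 37.4 and 27.6 CPM in WT Ang II. Every Ang II library was thus above every sham library. The log2 fold change was 0.63 ± 0.13 (SE, edgeR, n = 3 per group), with an adjusted p of 0.0208. LAG-3 binds MHC class II and damps CD4+ T cell activation in particular. Lag3 was at 20.0, 15.2 and 19.9 CPM in WT sham and at 24.8, 32.5 and 24.8 CPM in WT Ang II, again with no overlap. Its log2 fold change was 0.59 ± 0.16 (edgeR adjusted p = 0.0413). Both calls were lost when all 12 libraries shared a single fit (edgeR adjusted p = 0.113 for Tigit and 0.196 for Lag3), and when WT sham replicate 1, WT sham replicate 2 or WT Ang II replicate 2 was left out. Lag3 also lost its call without WT sham replicate 3 and without WT Ang II replicate 3.

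PD-1 recruits the phosphatase SHP-2 to the T cell receptor and CD28 after binding PD-L1 or PD-L2. Pdcd1 was at 29.1, 22.7 and 29.9 CPM in WT sham and at 34.3, 61.8 and 34.3 CPM in WT Ang II. The groups did not overlap, but WT Ang II replicate 2 stood well above its group, and the log2 fold change of 0.69 ± 0.24 did not pass the test (edgeR adjusted p = 0.0862). Without that library the log2 fold change was 0.35. TIM-3 marks terminally exhausted T cells and is also found on myeloid cells. Havcr2 was at 5.23, 3.53 and 2.37 CPM in WT sham and at 5.76, 7.52 and 8.46 CPM in WT Ang II. The lowest Ang II library was just above the highest sham library, and the log2 fold change was 0.98 ± 0.31 (edgeR adjusted p = 0.0690). With DESeq2, all 4 of these receptors passed (adjusted p = 0.0122 for Pdcd1, 0.00399 for Lag3, 0.000535 for Tigit and 0.00790 for Havcr2), beside 15.1% of all genes passing as higher with that tool.

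**Figure D2:**
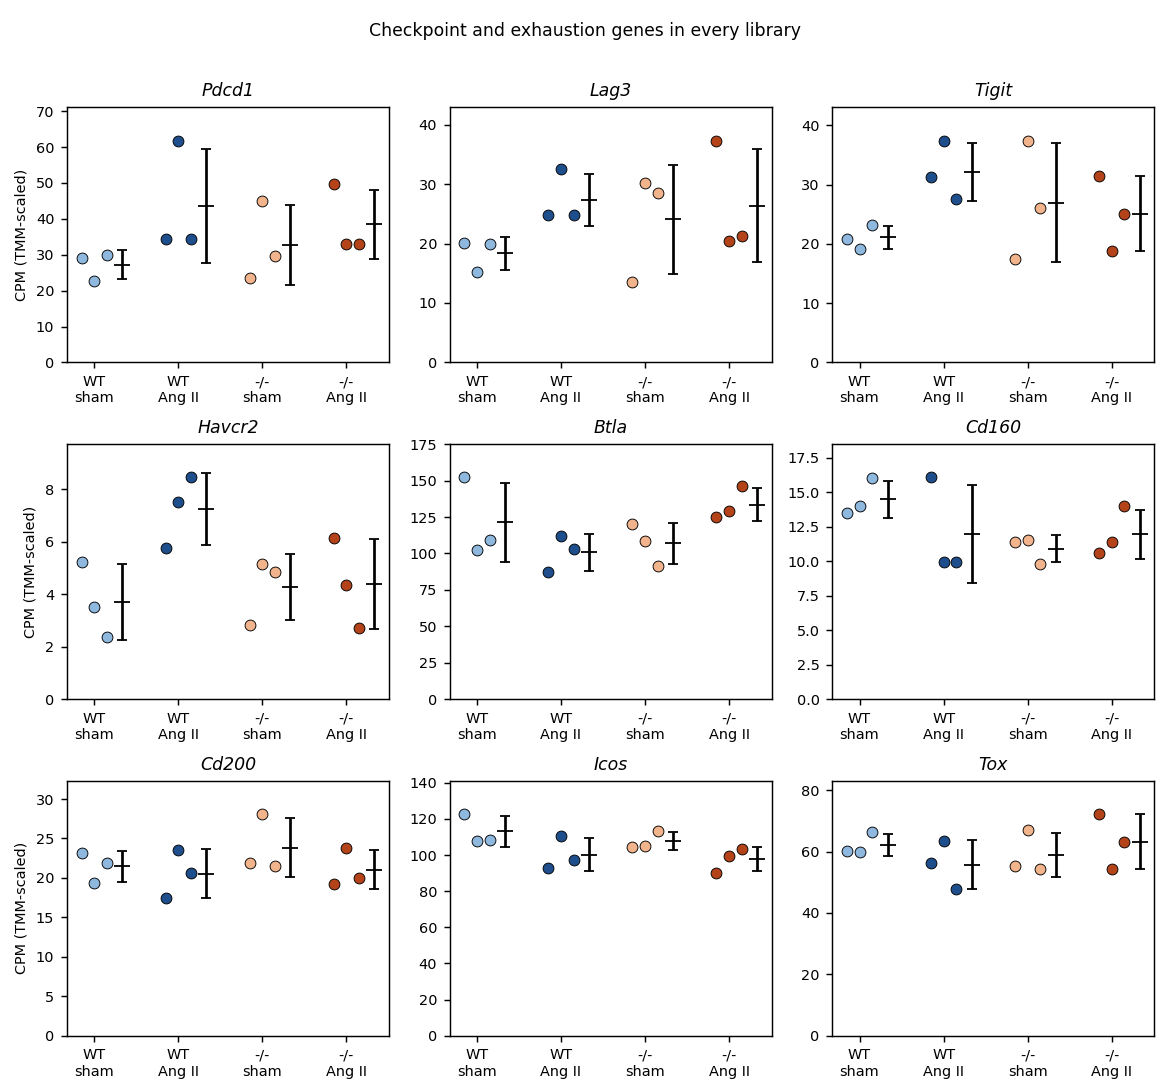
Normalised level (CPM) of each gene by group; points are libraries, and the horizontal bar with whiskers is the group mean ± SD (n = 3). Pdcd1, Lag3, Tigit and Havcr2 are higher in all 3 WT Ang II libraries than in all 3 WT sham libraries, and in miR-214-/- the same genes overlap between sham and Ang II.

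Markers of cell types were described in the same WT groups, where Tigit and Lag3 had risen. In WT, 12 of 15 T cell genes fell by adjusted p and none rose, with a median log2 fold change of -0.51 (Cd3e, a subunit of the T cell receptor complex, at 431 ± 31.4 CPM in sham and 304 CPM in Ang II; Lck, its proximal kinase, with a log2 fold change of -0.55). NK cells, which can carry several of these receptors, had no marker that rose. Of 9 NK cell genes 6 were tested and 2 fell (Gzma by 1.33 and Prf1 by 0.84 on the log2 scale), and the summed NK level was 184 to 316 CPM in WT sham and 105 to 136 CPM in WT Ang II. Gzma and Prf1 made up much of that sum (37.9 to 112 and 75.7 to 105 CPM in WT sham). Ncr1 overlapped between the groups (20.1 to 46.2 against 12.8 to 24.9 CPM). Macrophage and dendritic cell markers, which matter for Havcr2, leaned higher: 10 of 10 macrophage and monocyte genes had a positive log2 fold change (median 0.69, 1 past the test) and 7 of 10 dendritic cell genes did (median 0.69, 2 past the test), beside 11.7% of all genes higher by adjusted p. The summed levels overlapped between the groups (363 to 680 against 562 to 2539 CPM for macrophages and monocytes, 44.6 to 113 against 91.8 to 142 CPM for dendritic cells). In WT Ang II the highest macrophage sum was in replicate 1, the library of that group with the least Havcr2. In WT sham the macrophage sums of replicates 1, 2 and 3 (680, 633 and 363 CPM) fell in the same order as Havcr2. The part of macrophages and dendritic cells in the Havcr2 values was not tested. Regulatory T cell genes, with which Tigit and Lag3 are often expressed, had a median log2 fold change of 0.13, with 9 of 11 positive, 0 rising by the test and 1 falling (Izumo1r, log2 fold change -0.31). Foxp3, their defining factor, was at 79.5 ± 3.96 CPM in sham and 79.8 CPM in Ang II. The T cell sum was lower in WT Ang II (4454 to 5380 CPM, against 6519 to 7756 CPM in WT sham). The cell type values given here were not scaled by that sum, so a share of the T cells cannot be read from them. Among 12 follicular helper T cell genes, which accompany high Pdcd1, the median was 0.22, with 8 positive. Of these, 1 rose (Cebpa, log2 fold change 1.07, a factor better known from myeloid cells) and 1 fell (Sh2d1a, log2 fold change -0.43), while Cxcr5, their homing receptor, had a log2 fold change of -0.10. All 10 cell cycle genes rose by adjusted p (median log2 fold change 2.34), beside 11.7% of all genes higher. Their sum was 441 to 534 CPM in WT sham and 1557 to 1850 CPM in WT Ang II. The parts of NK cells, regulatory T cells and follicular helper T cells in the receptor values were not tested. Nor were those of the lower T cell level and of cell cycling.

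When libraries were scaled by the T cell genes in place of all genes, the median of all genes in WT moved to 0.49 on the log2 scale and 4 members were called (Pdcd1, Lag3, Tigit and Havcr2), compared with 16.1% of all genes called as higher on that scale. Relative to that median, log2 fold changes were 0.71 for Pdcd1, 0.61 for Lag3, 0.64 for Tigit and 0.99 for Havcr2. With scaling by all genes they were 0.69, 0.59, 0.63 and 0.98. Rescaling moves all genes by nearly the same amount, so these values repeat that result and are not separate support for it. Expressed per 1000 counts of the T cell genes, Tigit was 2.97 ± 0.244 in WT sham and 6.51 ± 0.888 in WT Ang II, and Lag3 was 2.60 ± 0.464 and 5.56 ± 0.949 (SD, n = 3). The T cell genes that form the divisor were lower in WT Ang II, and every other member also had a higher mean there. Icos, for example, was 16.0 and 20.4, Btla 17.3 and 20.6, and Tox 8.75 and 11.3.

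None of the other 5 members passed the test in WT. BTLA and CD160 both bind the TNF receptor family member HVEM. Btla was at 152, 103 and 109 CPM in WT sham and at 87.2, 112 and 103 CPM in WT Ang II. The high value was in WT sham replicate 1, which also held the highest B cell sum of the WT libraries (381 CPM). The log2 fold change of Btla was -0.25 ± 0.16 (edgeR adjusted p = 0.318) with that library and -0.05 without it. The part of B cells in these values was not tested. Cd160 was at 13.5, 14.0 and 16.0 CPM in WT sham and at 16.1, 9.90 and 9.90 CPM in WT Ang II, so that a single Ang II library (replicate 1) lay at the level of sham. Its log2 fold change was -0.25 ± 0.22 (edgeR adjusted p = 0.447), and without that library it was -0.53 (edgeR adjusted p = 0.0428). The NK cell sum was 136, 105 and 121 CPM in WT Ang II replicates 1, 2 and 3, and 184 to 316 CPM in WT sham. The part of NK cells in the Cd160 values was not tested. CD200 restrains myeloid cells that carry its receptor. Cd200 ranged from 19.3 to 23.2 CPM in WT sham and from 17.4 to 23.6 CPM in WT Ang II (log2 fold change -0.04 ± 0.14). Icos ranged from 108 to 123 CPM and from 92.8 to 110 CPM (log2 fold change -0.16 ± 0.09), and Tox from 59.9 to 66.3 CPM and from 47.7 to 63.3 CPM (log2 fold change -0.13 ± 0.10). The signs of all 5 were negative with TMM scaling and positive when libraries were scaled by the T cell genes, and Cd200 was also at or above 0 with library size scaling and without WT sham replicate 1 or WT Ang II replicate 1. On that scale Tox had a log2 fold change of 0.37 (edgeR adjusted p = 0.0319), below the median of all genes.

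In miR-214-/- T cells the same infusion left no member past either threshold, and 0.00% of 15937 genes were called. The log2 fold changes were 0.25 ± 0.27 for Pdcd1, 0.14 ± 0.36 for Lag3, -0.10 ± 0.30 for Tigit and 0.05 ± 0.36 for Havcr2. Their 95% intervals ran from -0.39 to 0.88 for Pdcd1, -0.70 to 0.98 for Lag3, -0.80 to 0.61 for Tigit and -0.80 to 0.90 for Havcr2. The log2 fold change seen in WT lay inside the interval for Pdcd1 (0.69) and Lag3 (0.59). It lay just above the interval for Tigit (0.63) and Havcr2 (0.98). Groups did not overlap for 2 of 9 members (22.2%), beside 19.3% of all genes. These were Btla (higher, log2 fold change 0.33 ± 0.11, edgeR adjusted p = 0.353) and Icos (lower, log2 fold change -0.13 ± 0.07, edgeR adjusted p = 0.492). Tox, Cd200 and Cd160 had log2 fold changes of 0.11, -0.17 and 0.14.

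The receptors were uneven among the miR-214-/- mice in both treatments. Tigit was at 17.4, 37.4 and 26.1 CPM in miR-214-/- sham and at 31.4, 18.7 and 25.0 CPM in miR-214-/- Ang II. Lag3 was at 13.5, 30.1 and 28.5 CPM in sham and at 37.3, 20.4 and 21.3 CPM in Ang II. Pdcd1 was at 23.4, 45.0 and 29.6 CPM in sham and at 49.7, 33.0 and 32.9 CPM in Ang II. Sham replicate 1 was thus the lowest knockout sham library for all 3 genes, and Ang II replicate 1 the highest knockout Ang II library for all 3. Havcr2 had the same lowest and highest libraries, with 2.82, 5.15 and 4.86 CPM in sham and 6.15, 4.34 and 2.70 CPM in Ang II. These same 2 libraries were at the ends of other sums among the 6 knockout libraries. In sham replicate 1 the cell cycle sum was the lowest (590 CPM), the regulatory T cell sum the lowest (560 CPM) and the T cell sum the highest (6999 CPM). In Ang II replicate 1 the cell cycle sum was the highest (1491 CPM), the regulatory T cell sum the highest (726 CPM) and the T cell sum the lowest (5034 CPM). The part of these differences in the receptor values was not tested.

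**Figure D3:**
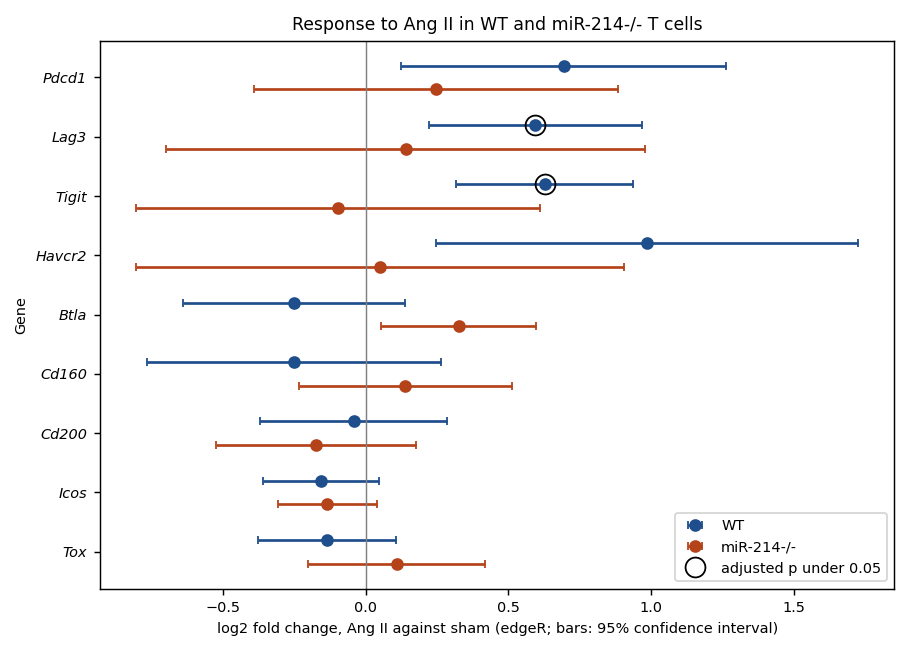
Log2 fold change from sham to Ang II for each gene in WT and in miR-214-/- (edgeR, n = 3 per group); bars are 95% confidence intervals and ringed points have an adjusted p under 0.05. Only Lag3 and Tigit in WT are ringed, and the WT and miR-214-/- intervals overlap for each of the 9 genes.

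To ask whether the response to Ang II differed between genotypes, the interaction of genotype and Ang II was tested over all 12 libraries. No member passed, and 1 of 16770 genes did (0.00596%). The response in miR-214-/- minus that in WT was -0.71 on the log2 scale for Tigit (95% interval -1.50 to 0.08, edgeR adjusted p = 0.374), -0.92 for Havcr2 (-2.03 to 0.19, edgeR adjusted p = 0.400), -0.44 for Pdcd1 (-1.33 to 0.45) and -0.44 for Lag3 (-1.38 to 0.50). A difference in response of these receptors was thus not shown, although Tigit and Lag3 passed in WT and not in miR-214-/-. Btla had the interaction with the smallest p of the members: its response was 0.59 higher in miR-214-/- (0.11 to 1.07, unadjusted p = 0.0206 in edgeR and adjusted p = 0.269). Cd160, Tox, Cd200 and Icos had interactions of 0.41, 0.26, -0.12 and 0.04, none past the threshold.

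The genotypes were also compared within each treatment. In sham mice no member passed the fold and p thresholds (0.0189% of 15913 genes) or the adjusted p alone (0.0251%), and 1 of 9 members (11.1%) did not overlap, beside 10.2% of all genes. This was Cd160, with 13.5, 14.0 and 16.0 CPM in WT sham and 11.4, 11.5 and 9.76 CPM in miR-214-/- sham. Each knockout library was below each WT library, the log2 fold change was -0.41 ± 0.13, and the adjusted p was 0.701 (edgeR). Pdcd1, Lag3, Tigit and Havcr2 had log2 fold changes between 0.20 and 0.38 in this comparison, and the other members between -0.19 and 0.15.

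In Ang II mice, no member and 0.00% of 16215 genes were called between the genotypes, and 1 of 9 members (11.1%) did not overlap, beside 14.0% of all genes. This was Btla, at 87.2, 112 and 103 CPM in WT Ang II and at 125, 129 and 146 CPM in miR-214-/- Ang II. Its log2 fold change was 0.41 ± 0.11 (edgeR unadjusted p = 0.00740, adjusted p = 0.569). The B cell sum was 123 to 185 CPM in WT Ang II and 96.9, 492 and 63.8 CPM in miR-214-/- Ang II replicates 1, 2 and 3, and the log2 fold change of Btla was 0.44 without replicate 2. The part of B cells in this difference was not tested. Havcr2 had a log2 fold change of -0.71 ± 0.33 (edgeR adjusted p = 0.569) and Tigit of -0.35 ± 0.21 (edgeR adjusted p = 0.587), with overlap in both.

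The variation of the members over the libraries was also compared between pairs of members. Over the 36 pairs of members and 12 libraries, 3 pairs were correlated at an adjusted permutation p under 0.05, and these were the 3 pairs among Pdcd1, Lag3 and Tigit. Pearson's r was 0.875 for Pdcd1 and Lag3 (Spearman's rho 0.853), 0.858 for Pdcd1 and Tigit (rho 0.846), and 0.878 for Lag3 and Tigit (rho 0.909), on log2 CPM. For r the permutation p was 0.00021, 0.00032 and 0.00024 in the same order (adjusted p = 0.00384 for all 3), and for rho it was 0.00083, 0.00082 and 0.00015 (adjusted p = 0.00996, 0.00996 and 0.00540). Without the 2 libraries farthest from the median of the gene named first, r was 0.849, 0.834 and 0.880. Since the WT groups differed in these genes, the relation was also computed on deviations from the group means, where r was 0.833, 0.859 and 0.888. An exact permutation of libraries within groups gave a two-sided p of 0.00617, 0.00772 and 0.00231 (adjusted p = 0.0694 for each over the 36 pairs), so the within-group relation did not pass after adjustment. Havcr2 was less closely tied to the other receptors (r of 0.619 with Pdcd1, 0.677 with Lag3 and 0.612 with Tigit, none past the threshold after adjustment). Tox correlated with Pdcd1 at an r of 0.443 over all libraries and 0.817 within groups, and with Tigit at 0.359 and 0.830, neither pair passing after adjustment. By genotype, the r of Tox with Pdcd1 was 0.080 over the WT libraries and 0.862 over the miR-214-/- libraries. With Tigit it was -0.125 and 0.781.

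**Figure D4:**
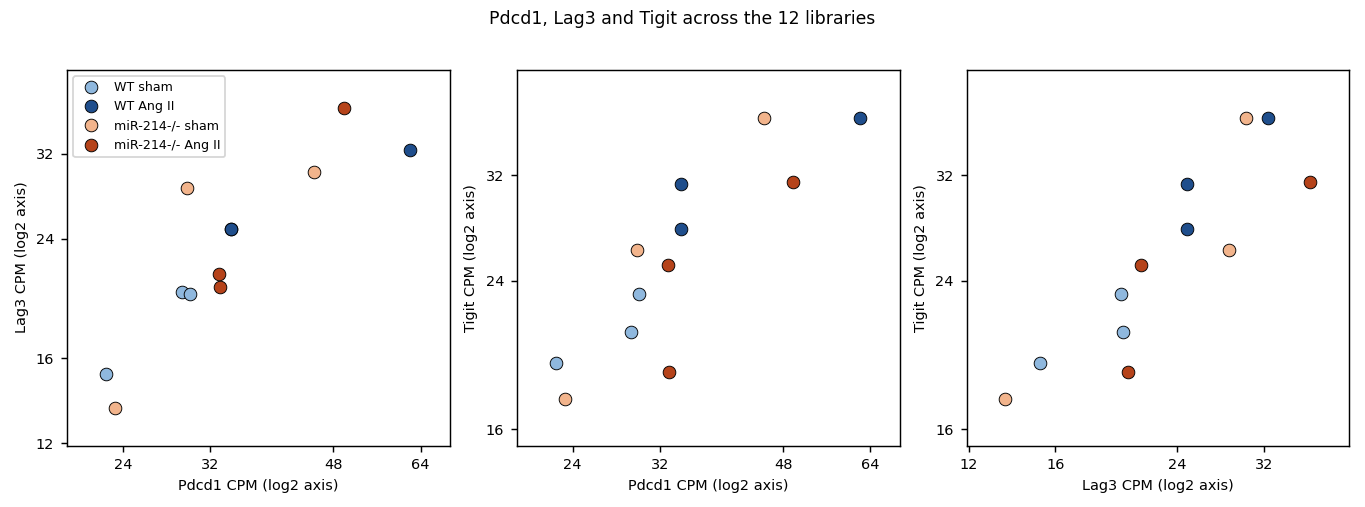
Each point is a library, coloured by group, at its CPM (log2 axes) of Pdcd1 and Lag3 (left), Pdcd1 and Tigit (middle), and Lag3 and Tigit (right). Libraries high in a gene are high in the others (r of 0.875, 0.858 and 0.878), with knockout libraries spread over much of the range in both treatments.

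The genes whose levels were most like those of 8 of the members over the 12 libraries, among 13763 genes compared, are given as a description. For Lag3 these were Nrbp2 (r = 0.937, rho = 0.881) and Spock2 (r = 0.929, rho = 0.930), and for Tigit Spock2 (r = 0.893, rho = 0.895) and Ica1l (r = 0.893, rho = 0.853). Spock2, which encodes a matrix proteoglycan, was thus shared by both receptors. For Pdcd1 they were Ift140 (r = 0.887, rho = 0.937) and Vegfb (r = 0.886, rho = 0.895), and for Havcr2 Cd81 (r = 0.954, rho = 0.902) and Cecr2 (r = 0.952, rho = 0.881). The nearest gene was Tpbgl for Cd160 (r = 0.903, rho = 0.874), Aldh5a1 for Tox (r = 0.897, rho = 0.867), Gm16206 for Cd200 (r = 0.832, rho = 0.622) and Klf6 for Icos (r = 0.927, rho = 0.881). All points in these correlations share the same libraries and their differences in cell content.

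The other genes of the pathway were described in WT by their role. Among ligands and binding partners of the 9 members, 14 of 16 were tested and 3 rose, all past the fold threshold: Nectin2, a ligand of TIGIT (log2 fold change 1.39, edgeR adjusted p = 0.0482), Lgals3, a galectin that binds LAG-3 (1.75, adjusted p = 0.0266), and Ceacam1, a binding partner of TIM-3 (1.85, adjusted p = 0.0344). Lgals3 was at 19.2 ± 2.13 CPM in sham and 63.4 CPM in Ang II, and Nectin2 was low in both (0.654 and 1.72 CPM). None of the 14 fell, and the list median was 0.24. Over all genes tested in WT, 7.30% were called in either direction and 11.7% were higher by adjusted p alone. These 3 genes are also expressed by myeloid cells, and the neutrophil sum was higher in the same libraries (193 to 244 against 1073 to 3240 CPM). Its part in their values was not tested. The ligand of PD-1 most used in lymphoid tissue, Cd274 (PD-L1), had a log2 fold change of -0.29 (edgeR adjusted p = 0.0566), and Pvr (CD155), the main ligand of TIGIT, -0.45 (edgeR adjusted p = 0.0636).

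In related receptors and in the signalling below them, the genes that passed the test fell. Beside them, 12 of 15 T cell genes fell in the same libraries (median -0.51), and 7.06% of all genes were lower by adjusted p. Of 19 other inhibitory and costimulatory receptors tested, none rose and 5 fell (Cd5, Cd6, Cd27, Cd101 and Pecam1), with a list median of -0.30. Cd5 and Cd6 also belong to the T cell list. Cd27, a costimulatory receptor of naive and memory cells, was at 308 ± 14.0 CPM in sham and 208 CPM in Ang II (log2 fold change -0.54, edgeR adjusted p = 0.00944). Of 16 genes of inhibitory signalling, none rose and 9 fell, with a list median of -0.36. They included the diacylglycerol kinase Dgka (log2 fold change -0.56), which ends the diacylglycerol signal below the receptor, the ubiquitin ligase Cblb (-0.50), and the adaptor Pag1 (-0.49). The phosphatases through which PD-1 and BTLA act were not among them: Ptpn6 (SHP-1) had a log2 fold change of -0.09 and Ptpn11 (SHP-2) of 0.21.

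Of 19 transcription factors linked to exhaustion, none rose and 3 fell, namely Tcf7 (log2 fold change -0.50, edgeR adjusted p = 0.0107), Lef1 (-0.66, adjusted p = 0.00733) and Id3 (-0.82, adjusted p = 0.0159), with a list median of -0.18. The median of the T cell genes was -0.51 in the same libraries, and 7.06% of all genes were lower. The part of the lower T cell level in the falls of these lists was not tested. Tcf7 and Lef1 encode factors of naive and stem-like memory T cells, and Id3 is kept in the same cells. Tox2, the relative of Tox, had a log2 fold change of 0.27, and Nr4a1, a gene induced by T cell receptor signals, of -0.59 (edgeR adjusted p = 0.227). In miR-214-/-, and in the comparisons between the genotypes and the interaction, no gene of these 4 pathway lists had an adjusted p under 0.05.

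**Figure D5:**
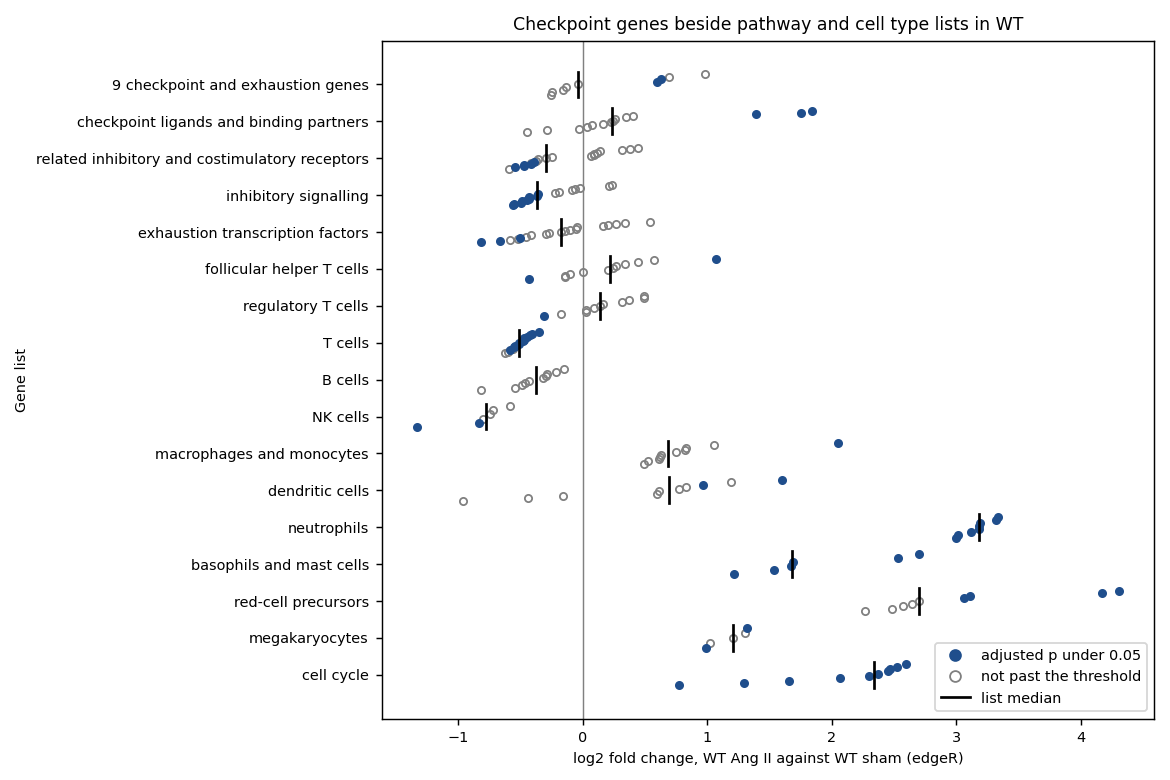
Log2 fold change from WT sham to WT Ang II for each tested gene (points) of the 9 members, of 4 pathway lists and of cell type and cell cycle lists; filled points have an adjusted p under 0.05 in edgeR and the black line is the list median. The members are centred at -0.04 with Tigit and Lag3 filled at 0.63 and 0.59, T cell genes lie to the left (median -0.51), and neutrophil, red-cell precursor and cell cycle genes lie to the right.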

How the data were processed

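Gene expression was measured by RNASeq in splenic T cells of 12 mice. The authors aligned reads to GRCm38, counted them in genes by featureCounts (Subread 1.5.2) and deposited the counts without normalization. All 12 columns were used. Libraries were grouped by the genotype and treatment in their titles. Replicate libraries were compared, and none were copies.

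The tests were run with edgeR 4.0.16 under R 4.3.3, and with DESeq2 1.42.0 as an alternative. Each comparison used filterByExpr, TMM scaling and the quasi-likelihood test with Benjamini-Hochberg adjustment over all genes tested. Calls needed an adjusted p below 0.05 and, outside the interaction, a log2 fold change beyond 1 in either direction. CPM values were TMM-scaled over all 12 libraries, and correlations used log2 CPM with a prior count of 2 and 100000 permutations, two-sided. The fitting was tested on simulated data. Intervals cover 95%. The paper's methods state that the samples were independent mice, so the tests set group differences against the spread between mice.

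The members and gene lists were chosen with earlier results of these data known. All 9 members were named, with genes of each list that passed or moved most and, of the 2 genes most correlated with each member, both or the nearest; the result for Btla is not reported here. Folr4 and Ahsp were not matched in the table. The exact permutation within groups, and the count of members by adjusted p under each alternative, were chosen after seeing the data. The alternatives were RLE, library size and T cell gene scaling, other filters, the other quasi-likelihood setting, a single fit over all libraries, a replicate block, a red-cell covariate, DESeq2 and leaving out each library.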

Additional observations from a re-analysis of the deposited data

How the results depend on the processing

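With 3 mice per group the comparisons could show large and even changes, and Havcr2 rested on 52 to 211 counts. Pdcd1, Lag3, Tigit and Havcr2 kept a positive log2 fold change in WT under all 15 alternatives run for that comparison (0.35 to 1.20, 0.45 to 1.10, 0.50 to 1.13 and 0.74 to 1.48), with an adjusted p under 0.05 in 2, 8, 10 and 3 of them. The number of members with an adjusted p under 0.05 in WT was 2, and it was 4 with DESeq2, 5 with scaling by the T cell genes, 0 in 1 fit over all groups, and 0 to 3 when a library was left out. Members called with the fold threshold in WT numbered 0, and 4 with scaling by the T cell genes, 1 with no filter (Havcr2) and 2 by adjusted p alone.

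The labels do not say whether replicate numbers paired the mice. Between sham and Ang II, deviations of libraries with the same number correlated at -0.14 to 0.20 in WT and at -0.56 to -0.23 in miR-214-/-. These values cannot decide the question, since libraries with different numbers were not correlated for comparison. With a replicate block, the number of members with an adjusted p under 0.05 in WT was 0 (edgeR adjusted p = 0.0548 for Tigit and 0.0930 for Lag3), the number of genes called between genotypes in sham was 0, and Cd160 had a log2 fold change of 0.032 between genotypes in Ang II, against -0.00066 without the block.

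Genes called in WT numbered 1169, 3009 by adjusted p alone, 2578 with scaling by the T cell genes and 564 to 1338 with a library left out (564 without WT sham replicate 1, 605 without WT sham replicate 3 and 599 without WT Ang II replicate 3). In miR-214-/- they numbered 0, 51 with DESeq2, 3 with no filter and 0 to 1 with a library left out. Between genotypes they numbered 3 in sham (45 with DESeq2, 9 with no filter, 0 in 1 fit over all groups, 0 to 30 with a library left out) and 0 in Ang II (21 with DESeq2, 0 to 1 with a library left out). For the interaction they numbered 1, 444 with DESeq2, 0 with scaling by the T cell genes, 0 with the red-cell covariate, and 0 to 919 with a library left out (919 without miR-214-/- Ang II replicate 1). The cause of these differences was not tested. For the correlations, 3 pairs passed by Pearson's r and 0 under the exact permutation within groups.

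Some members changed sign. With scaling by the T cell genes, log2 fold changes in WT were 0.25 for Btla, 0.24 for Cd160, 0.37 for Tox, 0.47 for Cd200 and 0.35 for Icos. On the same scale they were 0.088 for Tox and 0.084 for Icos between genotypes in sham, -0.091 for Tox and -0.29 for Cd200 between genotypes in Ang II, and -0.047 for Cd160, -0.18 for Tox and -0.43 for Icos in the interaction. With library size scaling they were 0.0011 for Cd200 in WT, -0.012 for Cd200 between genotypes in Ang II and -0.030 for Icos in the interaction, and with the red-cell covariate 0.0055 for Cd200 in the interaction. With a library left out, ranges that crossed 0 were -0.15 to 0.060 for Cd200 in WT. In miR-214-/- they were -0.21 to 0.33 for Lag3, -0.28 to 0.29 for Havcr2, -0.34 to 0.21 for Tigit and -0.0066 to 0.21 for Tox. Between genotypes in sham they were -0.29 to 0.014 for Btla, -0.039 to 0.54 for Havcr2 and -0.036 to 0.45 for Pdcd1. Between genotypes in Ang II they were -0.40 to 0.16 for Pdcd1, -0.39 to 0.11 for Lag3, -0.13 to 0.29 for Cd160, -0.061 to 0.13 for Cd200 and -0.071 to 0.032 for Icos. In the interaction they were -0.024 to 0.11 for Icos and -0.22 to 0.019 for Cd200. None of the sign changes had an adjusted p under 0.05 except that of Tox in WT with scaling by the T cell genes (0.0319).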
